A study of Mus musculus with 4 samples.

Results

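Interferon response genes are genes that cells switch on when interferon reaches them, and this account follows 30 of them in mouse intestinal immune cells. The members were chosen by symbol from a fixed list, which was set with earlier results of these data known. Of the 30, 29 have a row among the 32285 genes of the count tables. Mx1 was not analysed here. By role, 12 are antiviral effectors (Isg15, Isg20, Ifit1, Ifit2, Ifit3, Oas1a, Oas2, Oas3, Oasl1, Oasl2, Rsad2 and Bst2), 6 are sensors, signal transducers or regulators (Usp18, Irf7, Irf9, Stat2, Ddx58 and Zbp1), 6 are interferon-inducible GTPases (Gbp2, Gbp4, Gbp7, Igtp, Irgm1 and Iigp1), and 5 are other induced genes (Ifi44, Ifi27l2a, Ifi203, Xaf1 and Rtp4).

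The cells were CD45+ leukocytes sorted from the crypt fraction of the mouse small intestine and profiled by 5′ single-cell RNA sequencing on the 10x platform. Mice were fed either a control diet (2 samples) or a cystine diet (2 samples); cystine is the oxidised dimer of the amino acid cysteine, and the sorting protocol calls the second diet high in cysteine. The sample titles set the groups, since the field for treatment says Control in all 4 samples, and the field for genotype says Male in all 4. No strain, age, diet dose or time on the diet is given in the labels. The labels do not say whether a sample was 1 mouse or a pool, so each p-value measures only the spread between these samples, which may be technical.

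Type I interferons (the alpha family and interferon beta) and type III interferons (the lambda family) signal through JAK kinases to a transcription factor complex that includes STAT2 and IRF9 and binds the interferon-stimulated response element (ISRE) in target promoters. Type II interferon (interferon gamma), made mainly by T and NK cells, acts through the gamma-activated site (GAS) and is the main inducer of the GBP and immunity-related GTPases. Plasmacytoid dendritic cells are specialised to release type I interferon and keep IRF7, a master regulator of its genes, at a high basal level. Intraepithelial lymphocytes, the T cells that lie between gut epithelial cells, are mostly γδ or CD8αα T cells.

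The promoter windows of the members carried the ISRE core more often than those of other genes. RefSeq windows on the GRCm38.p6 build, from 250 bases before to 50 bases after the transcription start, were given for 22 of the 29 members. The core searched was GAAANNGAAA on either strand (read on the other strand as TTTCNNTTTC; overlapping matches counted), and 14 of the 22 members (63.6%) held it, against 1079 of 27025 genes (3.99%). All 4 GTPases with a window held the core (Gbp2, Gbp7, Igtp and Irgm1), as did 7 of 11 effectors, 2 of 4 sensors and regulators (Ddx58 and Stat2) and 1 of 3 other genes (Ifi203). The GAS motif TTCNNNGAA was in 6 of the 22 windows (27.3%), against 9.55% of all genes. A match describes letters only and says nothing of binding. The 160 bases before the start are printed 5′ to 3′ in the direction of transcription for 3 effectors and 3 GTPases, whose levels the results below turn on, with ISRE core matches in capitals.

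Isg15 (chr4:156200819-156200978, minus strand): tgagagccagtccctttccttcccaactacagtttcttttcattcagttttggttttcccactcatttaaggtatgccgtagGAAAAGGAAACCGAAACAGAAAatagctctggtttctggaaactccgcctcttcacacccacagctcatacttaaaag
Ifit1 (chr19:34640729-34640888, plus strand): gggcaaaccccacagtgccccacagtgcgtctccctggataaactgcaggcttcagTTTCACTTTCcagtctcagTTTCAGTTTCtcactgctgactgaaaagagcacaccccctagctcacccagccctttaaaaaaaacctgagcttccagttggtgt
Ifit3 (chr19:34583369-34583528, plus strand): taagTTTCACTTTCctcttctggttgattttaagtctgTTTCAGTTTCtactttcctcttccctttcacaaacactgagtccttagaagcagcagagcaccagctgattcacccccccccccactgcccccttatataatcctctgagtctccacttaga
Gbp2 (chr3:142620503-142620662, plus strand): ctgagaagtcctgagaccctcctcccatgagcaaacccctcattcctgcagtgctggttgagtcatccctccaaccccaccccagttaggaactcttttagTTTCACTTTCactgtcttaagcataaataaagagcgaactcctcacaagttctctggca
Igtp (chr11:58199396-58199555, plus strand): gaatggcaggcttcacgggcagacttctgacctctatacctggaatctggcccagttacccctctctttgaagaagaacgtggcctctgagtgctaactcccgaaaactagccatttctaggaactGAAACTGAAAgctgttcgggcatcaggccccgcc
Irgm1 (chr11:48871421-48871580, minus strand): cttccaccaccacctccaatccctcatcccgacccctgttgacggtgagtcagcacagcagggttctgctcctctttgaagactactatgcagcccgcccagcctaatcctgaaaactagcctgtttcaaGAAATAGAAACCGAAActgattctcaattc

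In Isg15, 3 overlapping matches formed a run of 22 bases that began 78 bases before the start. Ifit1 held separate cores 104 and 85 bases before its start, and Ifit3 held them at 156 and 122 bases. A single core lay 59 bases before the start of Gbp2 and 34 bases before that of Igtp, while 2 overlapping cores in Irgm1 began 30 bases before the start.

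The protocol states 18000 cells loaded per sample, and the files hold 16865, 15391, 19351 and 16653 barcodes, so 1 library has more barcodes than cells loaded. After filtering, 58702 of 68260 barcodes were kept: 14554 and 13479 cells from the control samples and 16310 and 14359 from the cystine samples, in order of replicate number here and throughout. Median depth was 1295 to 1712 UMIs (unique molecular identifiers, counts of single RNA molecules) per cell, and any pair of libraries shared 251 to 329 cell barcodes. Cells were classed by marker UMIs, with no member used as a marker, and each class is called "-like" because it was set by markers alone. Of the markers the classes had not used, some were highest in the class they stand for and others were not. Pld4 stood at 1640 CPM (a gene's UMIs scaled to a common library total) in plasmacytoid dendritic-like cells, though also at 657.6 CPM in monocyte or macrophage-like cells, and at 1.58 CPM in CD8αα T-like cells. Spi1 was at 945.5 CPM in monocyte or macrophage-like cells and 1.55 CPM in γδ T-like cells. Trdv4, a γδ receptor segment, was at 13.8 CPM in γδ and 11.3 CPM in CD8αα T-like cells, and highest in NK-like cells (257.5 CPM). Lef1 was higher in CD4 (100.6 CPM) than in CD8αβ T-like cells (55.4 CPM), and Tyrobp was higher in plasmacytoid dendritic-like (7781 CPM) than in NK-like (4936 CPM) or monocyte or macrophage-like cells (5293 CPM). γδ T-like cells were 22.5% to 37.9% of the kept cells and CD8αα T-like cells 23.8% to 32.3%. CD8αβ T-like cells made up 3.57% and 3.30% in control and 7.43% and 8.55% in cystine, B-like cells 1.94% and 2.09% against 11.8% and 5.32%, and plasmacytoid dendritic-like cells 0.742% and 0.757% against 1.56% and 1.66%. CD4 T-like (39 to 83 cells per sample) and monocyte or macrophage-like cells (38 to 64) were few.

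The summed level of the 29 members differed between some classes and overlapped between others. In γδ T-like cells the members together took 1386 and 1394 CPM in the control and 1330 and 1381 CPM in the cystine samples, and CD8αα T-like cells lay between 1284 and 1370 CPM, overlapping them. CD8αβ T-like cells ranged from 1662 to 2314 CPM and CD4 T-like cells from 2129 to 2735 CPM, both above every γδ value and overlapping each other. Monocyte or macrophage-like cells stood at 4042, 5768, 4240 and 4126 CPM and plasmacytoid dendritic-like cells at 6811, 6665, 7221 and 6305 CPM. Without Bst2 and Isg20, the plasmacytoid dendritic-like sum was 1865, 1810, 2122 and 2033 CPM. The same reduced sum was 3646 to 5224 CPM in monocyte or macrophage-like cells and 1192 to 1248 CPM in γδ T-like cells. It was 1834 to 2561 CPM in CD4 and 1506 to 2066 CPM in CD8αβ T-like cells, both overlapping the plasmacytoid dendritic-like values. By the full sum, B-like cells were low in 3 of the 4 samples (930.2, 664.3 and 1093 CPM). They were at 1553 CPM in cystine replicate 2, which is above every γδ and CD8αα value.

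**Figure D1:**
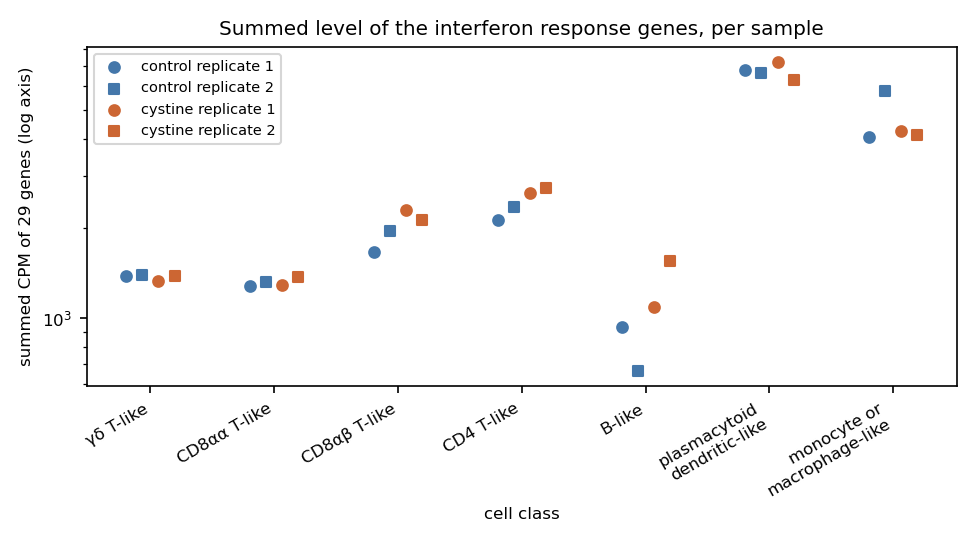
Summed CPM of the 29 interferon response genes (log axis) in 7 cell classes; each point is 1 sample, coloured by diet. All 4 plasmacytoid dendritic-like points lie between 6305 and 7221 CPM, and the γδ and CD8αα T-like points lie between 1284 and 1394 CPM.

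By class mean, monocyte or macrophage-like cells ranked first for 15 of the 29 members, plasmacytoid dendritic-like cells for 5, CD8αβ T-like cells for 5, CD4 T-like cells for 2, and B-like and γδ T-like cells for 1 each. For most members the first and second class overlapped between samples. The monocyte or macrophage-like level was above the next class in all 4 samples for 5 members (Oas1a, Oasl2, Ifi27l2a, Xaf1 and Rtp4), and the plasmacytoid dendritic-like level for 3 (Bst2, Stat2 and Ifi44). This ranking was not made over all genes, so the counts have no background share beside them. Floors (3 counts) were 15.7 to 31.3 CPM in the scarce monocyte or macrophage-like class. Oas2 ranked first there at a mean of 11.97 CPM, under each of these floors.

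**Figure D2:**
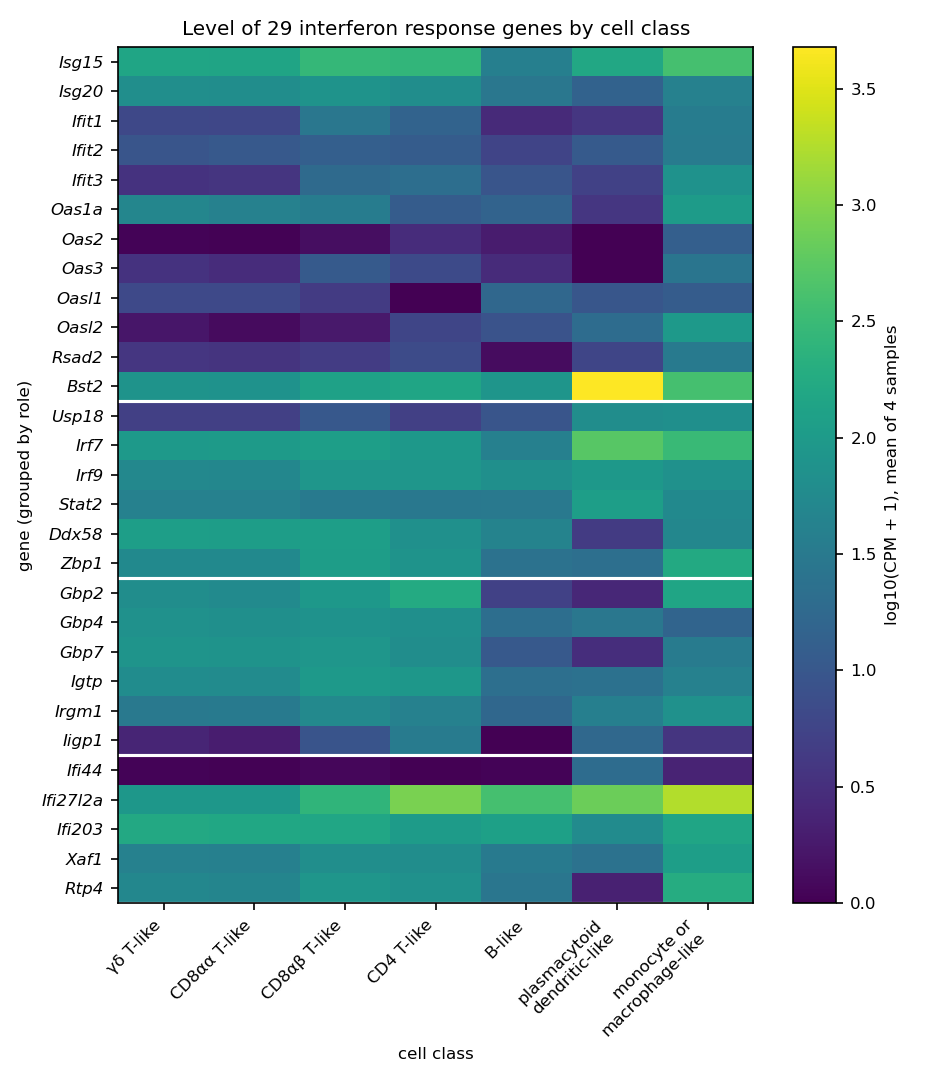
Level of each member, as log10(CPM + 1) of the mean over 4 samples, in 7 cell classes; white lines part effectors, sensors and regulators, GTPases and other genes, from top to bottom. Bst2 in plasmacytoid dendritic-like cells (mean 4779 CPM) is the brightest cell, and the GTPases Gbp2 and Gbp7 are dark in the same column.

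Members did not move as one block in plasmacytoid dendritic-like cells. Against γδ T-like cells of the same samples, 10 of 25 tested members were higher and 11 lower (edgeR quasi-likelihood test, sample as a block, Benjamini-Hochberg adjusted p under 0.05), while 25.2% of all 10470 genes tested were higher and 29.1% lower. The members' median log2 difference was 0.36, against -0.14 over all genes. A member enters such a test when it reaches a set level in enough samples, and getting in through a single class favours a difference without fixing one. Of the 15 members that reached it in all samples of both classes 7 were higher and 6 lower; Ifi44, Oasl2 and Usp18 got in through the plasmacytoid dendritic-like cells and Gbp2, Gbp7, Rtp4, Ddx58, Oas1a and Ifit1 through the γδ T-like cells. Bst2, which encodes tetherin, a protein that holds budding virus on the cell surface, stood at 4942, 4835, 5080 and 4261 CPM against 75.0, 79.2, 71.9 and 82.2 CPM in γδ T-like cells, a log2 difference of 6.16 (SE 0.13, edgeR adjusted p = 2.4e-50). The groups were far apart in all 4 samples. Bst2 is also known as a surface marker of mouse plasmacytoid dendritic cells, and it was not among the markers that set the class.

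In the same comparison 4 of the 6 sensors and regulators were higher and 2 lower, against 25.2% and 29.1% of all genes. The 2 lower ones were Ddx58 (log2 difference -4.65) and Zbp1 (-1.12). Ddx58 got in through the γδ T-like cells and Usp18 through the plasmacytoid dendritic-like cells, which favours their calls. Irf7 was at 565.0, 418.8, 619.2 and 482.4 CPM against 89.7 to 102.5 CPM in γδ T-like cells (log2 difference 2.66, SE 0.11, edgeR adjusted p = 1.7e-33). The transducer Stat2 (log2 difference 1.66), its partner Irf9 (1.07) and Usp18, which removes ISG15 from proteins and dampens type I receptor signalling (4.18), were higher as well. Ifi27l2a, a small interferon-induced mitochondrial protein gene, was higher by 3.24 on the log2 scale. Ifi44 had 8, 5, 7 and 11 UMIs in plasmacytoid dendritic-like cells and 0, 1, 1 and 1 in the far more numerous γδ T-like cells.

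Most of the GTPases tested, and the RNA sensor, went the other way. Gbp2, a guanylate-binding protein that acts on vacuoles holding pathogens, had 0, 0, 1 and 3 UMIs in plasmacytoid dendritic-like cells, at or under the floor of 3 counts, against 55.0 to 75.9 CPM in γδ T-like cells. Gbp7 had 0, 0, 4 and 1 UMIs there, and Rtp4, a chaperone of taste and odorant receptors that interferon induces, 0, 1, 0 and 1. Ddx58, which encodes the cytoplasmic RNA sensor RIG-I, was at 3.9, 0, 5.0 and 4.6 CPM against 105.1 to 118.8 CPM in γδ T-like cells. Gbp2, Gbp7, Rtp4 and Ddx58 were called lower by edgeR, but each got in through the γδ T-like cells, which favours its call. The same holds for Oas1a. Gbp4, Igtp, Isg20, Zbp1, Ifi203 and Xaf1 reached the level for testing in all samples of both classes and were called lower too. Among GTPases only Irgm1 was higher (log2 difference 0.57, edgeR adjusted p = 0.018), and that call was lost without control replicate 2 (0.45) or cystine replicate 2 (0.34). Isg15 was called higher (0.36, edgeR adjusted p = 0.013) and Xaf1 lower (-0.58, edgeR adjusted p = 0.028), but Isg15 lost its call without control replicate 2 or cystine replicate 2 and Xaf1 without control replicate 1 or cystine replicate 2.

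In monocyte or macrophage-like cells the members leaned upward: 18 of 26 tested were higher than in γδ T-like cells and 3 were lower, against 17.0% and 21.8% of all 10245 genes tested. Their median log2 difference was 1.67, against -0.35 over all genes. Of the 21 members that reached the level for testing in all samples of both classes 13 were higher and 3 lower; Oasl2, Oas3, Usp18, Rsad2 and Ifit3 got in through the monocyte or macrophage-like cells, which favours their calls. Ifit3, which acts with other IFIT proteins on foreign RNA, was at 41.7, 52.8, 157.9 and 47.2 CPM against 1.2 to 3.4 CPM (log2 difference 4.97, SE 0.50, edgeR adjusted p = 3.4e-22). Cystine replicate 1 stood highest for this gene, and all 4 values were above every γδ sample. Rsad2, which encodes the radical-SAM enzyme viperin, had the same high sample (10.4, 21.1, 81.6 and 10.5 CPM).

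Oasl2, a ubiquitin-like relative of the oligoadenylate synthetases, had 8, 22, 17 and 18 UMIs in 38 to 64 monocyte or macrophage-like cells. In the far more numerous γδ T-like cells it had 3, 5, 7 and 5. Ifi27l2a was at 1438, 2380, 1622 and 1824 CPM, against 78.3 to 113.4 CPM in γδ T-like cells (log2 difference 4.53, SE 0.15, edgeR adjusted p = 1.4e-191). The 3 members that were lower in this class were Gbp4 (log2 difference -2.20), Gbp7 (-1.24, call lost without cystine replicate 2) and Ddx58 (-1.11). Of those called higher, Irf9 (0.67) lost its call without control replicate 2, cystine replicate 1 or cystine replicate 2, and Irgm1 (1.32) without control replicate 2. The call of Gbp2 (1.20) was lost in the DESeq2 Wald test. Gbp2 was at 218.8 and 258.6 CPM in the control samples but at 49.0 and 47.2 CPM in the cystine samples, below the 55.1 and 55.0 CPM of γδ T-like cells there.

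B-like cells showed 7 members higher and 11 lower of 26 tested, against 27.7% and 30.1% of 10712 genes, with a median log2 difference of -0.60 (all genes -0.06). Of the 20 that reached the level for testing in all samples of both classes 5 were higher and 9 lower. Isg15, a ubiquitin-like protein that is attached to other proteins, was at 24.2, 22.5, 31.7 and 71.8 CPM against 113.7 to 162.3 CPM in γδ T-like cells (log2 difference -1.37, SE 0.17, edgeR adjusted p = 7.6e-08). All 4 B-like values lay below all 4 γδ values. Gbp2 (-3.35), Gbp7 (-2.83), Gbp4 (-1.60) and Igtp (-0.94) were lower, so 4 of the 5 GTPases tested were lower and none was higher. Ifi27l2a (2.48), Irf9 (0.85) and Oasl1 (1.87), a relative of the oligoadenylate synthetases that limits Irf7 translation, were higher. Oasl2 was called higher too, with 2, 4, 15 and 10 UMIs in B-like cells, and got in through those cells. Gbp2, Rsad2 and Ifit1 got in through the γδ T-like cells. Ifit3 (2.29) was called higher with 0, 2, 7 and 28 B-like UMIs, and without cystine replicate 2 its value was 1.01 and not called. Leaving out the same sample also ended the calls of Usp18 (1.40, then 0.99) and Bst2 (0.54, then 0.27). The call of Rsad2 (-2.16) was lost when any 1 sample was left out.

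Among T-like cells, CD8αβ cells had higher levels of many members than γδ cells. Of 25 members tested 16 were higher and 1 lower, against 16.4% and 16.8% of 10286 genes, and the members' median log2 difference was 0.79 (all genes -0.02). Of the 21 that reached the level for testing in all samples of both classes 14 were higher and 1 lower, while Oas3 and Ifit3 got in through the CD8αβ cells. Ifit1, which binds foreign RNA, was at 10.7, 40.4, 31.3 and 28.8 CPM against 3.8 to 6.5 CPM (log2 difference 2.52, SE 0.22, edgeR adjusted p = 2.9e-07). Isg15 was at 240.8, 257.3, 304.1 and 312.1 CPM, again above every γδ sample (log2 difference 1.06, SE 0.10, edgeR adjusted p = 7.8e-07). Ifit3 (2.87), Oas3 (2.13), Ifi27l2a (1.63), Usp18 (1.32) and Zbp1, a sensor of Z-form nucleic acid that can trigger cell death (1.12), were higher too. GTPases Irgm1 (0.94), Igtp (0.79) and Gbp2 (0.65) were higher by smaller amounts, and Ddx58 (0.11) and Ifi203 (-0.02) were not called. The one member called lower was Oas1a (-0.46, edgeR adjusted p = 0.012), and that call, with those of Irf7 (0.37) and Isg20 (0.40), was lost without cystine replicate 1 or cystine replicate 2.

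CD4 T-like cells, with 39 to 83 cells per sample, gave 5 members higher and 3 lower of 23 tested, against 5.19% and 7.28% of 9849 genes. Ifi27l2a was at 702.0, 694.7, 1100 and 941.9 CPM, above every γδ value (78.3 to 113.4 CPM; log2 difference 3.16, SE 0.15, edgeR adjusted p = 5.4e-89). Iigp1, an immunity-related GTPase, was called higher from few molecules (2, 4, 4 and 3 UMIs) and got in through the CD4 T-like cells. Of the 17 members that reached the level for testing in all samples of both classes 4 were higher and 2 lower. Oas1a, an oligoadenylate synthetase that activates RNase L, was lower (-2.16, edgeR adjusted p = 0.0012) and got in through the γδ T-like cells. Gbp2 was called higher (1.19) on 6, 6, 47 and 9 UMIs, and without cystine replicate 1 its value turned to -0.15. The DESeq2 Wald test called 3 members here (Ifi27l2a, Iigp1 and Oas1a). The calls of Bst2 (0.81) and Isg15 (0.70) were lost without control replicate 1 and cystine replicate 2 respectively. Those of Ddx58 (-0.81) and Ifi203 (-0.76) were lost without control replicate 1 or cystine replicate 1, and that of Ddx58 also without control replicate 2.

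Type I and type III interferon genes were nearly absent from the libraries, and the type II gene was detected. Of 20 interferon genes looked for, all type I and type III genes had 0 UMIs except Ifnk, with 1. A count of 0 allows up to 0.134 CPM in the kept cells of control replicate 1 and less in the others. Within the scarce classes it allows far more. The floors were 4.6 to 11.6 CPM in plasmacytoid dendritic-like and 15.7 to 31.3 CPM in monocyte or macrophage-like cells. Ifng, the type II gene, had 222, 273, 111 and 214 UMIs in all kept cells. CD4 T-like cells had 6, 15, 1 and 17 UMIs of it, or 45.3, 176.6, 11.2 and 140.5 CPM, against 6.2 to 10.1 CPM in γδ T-like cells (log2 difference 3.28, edgeR adjusted p = 1.6e-13). The 11.2 CPM is a single UMI, under the floor of 3 counts, which is 33.7 CPM in that sample. Plasmacytoid dendritic-like and monocyte or macrophage-like cells had no Ifng UMI. In monocyte or macrophage-like cells the floor was above every γδ value, so no single sample there shows a lower level.

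Receptor genes differed between classes in the same samples. Ifnar2, a subunit of the type I receptor, was at 508.3 to 587.2 CPM in plasmacytoid dendritic-like cells and 61.8 to 77.0 CPM in γδ T-like cells. Ifngr1, the ligand-binding chain of the type II receptor, had the opposite order, with 38.7 to 47.1 CPM in plasmacytoid dendritic-like and 243.3 to 349.3 CPM in γδ T-like cells. Its partner chain Ifngr2 was at 1.6 to 4.8 CPM in γδ T-like cells and at 177.1 to 274.4 CPM in monocyte or macrophage-like cells. Of the 21 receptor and transducer genes tested in plasmacytoid dendritic-like cells 9 were higher and 6 lower than in γδ T-like cells, against the 25.2% and 29.1% of all genes given above. Of a list of other interferon-induced genes, 22 of 36 were higher and 0 lower in CD8αβ than in γδ T-like cells (edgeR), against the 16.4% and 16.8% of all genes given above. Monocyte or macrophage-like cells had 22 higher and 3 lower of 42 (all genes 17.0% and 21.8%). Plasmacytoid dendritic-like cells had 14 and 17 of 36 (25.2% and 29.1%). B-like cells had 15 and 17 of 37 (27.7% and 30.1%), and CD4 T-like cells 5 and 2 of 34 (5.19% and 7.28%). Through which class these genes got in was not worked out.

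To see how the members were spread over cells, each cell was thinned at random to 1000 UMIs, which left out 4366, 1775, 4510 and 3655 shallower cells in the 4 samples. The median T-like cell then showed 1 of the 29 members, and 27.2% to 28.9% showed none. Between 1.49% and 2.41% of T-like cells showed 5 or more members, with a maximum of 16 or 17 in a single cell of each sample. The top 1% of T-like cells by member UMIs held 7.40% to 8.49% of these UMIs.

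Classes differed in this share of cells with 5 or more members. In γδ T-like cells it was 1.30%, 1.77%, 1.27% and 1.76%, and in CD8αα T-like cells 1.18% to 1.56%. CD8αβ T-like cells had 1.55% (95% exact interval 0.626 to 3.17) and 4.50% (2.73 to 6.94) in control and 8.20% (6.59 to 10.1) and 5.67% (4.36 to 7.24) in cystine samples. Both cystine values were above both control values, and the exact permutation p was 0.33, the smallest that 2 samples against 2 can give. Monocyte or macrophage-like cells had 14.3% and 22.6% in control and 11.3% and 8.16% in cystine, also without overlap and with the same exact permutation p of 0.33. Intervals here cover counting error only.

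**Figure D3:**
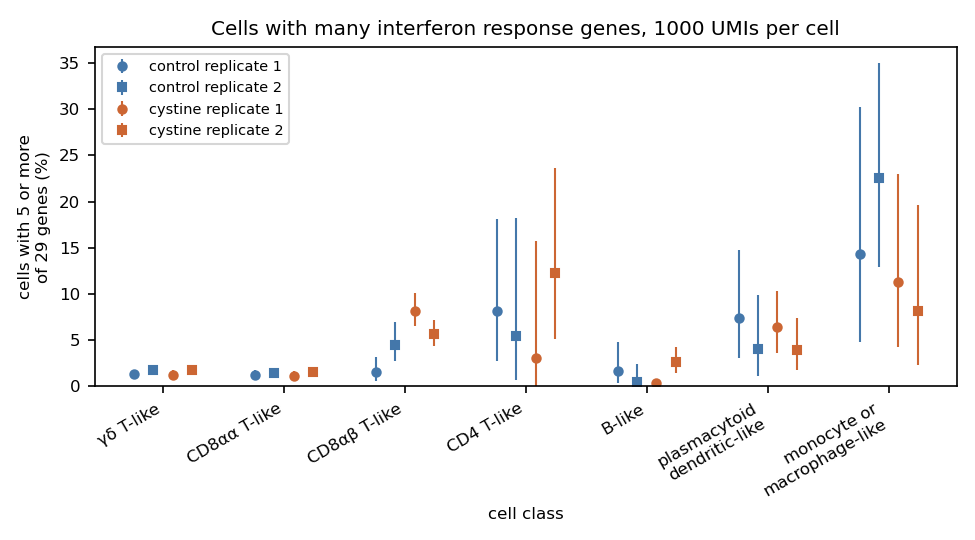
Share of cells (%) with 5 or more of the 29 members after thinning to 1000 UMIs per cell, by class; points are samples and bars are 95% exact binomial intervals. γδ and CD8αα T-like cells stay between 1.18% and 1.77% in every sample, while monocyte or macrophage-like cells reach 22.6% in control replicate 2.

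Members differed in how far they kept company with one another. Of thinned T-like cells with an Ifit3 UMI, 70.8% had 3 or more other members, compared with 14.2% of those without; for Ifit1 it was 62.7% against 14.0%. Oasl2 (72.0% of 25 cells), Rsad2 (47.9%), Iigp1 (46.7%), Usp18 (44.8%) and Oas3 (42.2%) were alike in this. Isg15, detected in 4933 of the 38051 thinned T-like cells, gave 20.3% against 10.5%. Stat2 (14.5% against 13.5%) and Ifi203 (14.2% against 11.1%), a member of the DNA-sensing HIN-200 family, showed little of it.

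A small set of T-like cells held UMIs of several of 5 sentinel genes (Ifit1, Ifit3, Rsad2, Oasl1 and Usp18). Cells with UMIs of 2 or more different sentinels are called sentinel-positive, so the sentinels themselves are high by construction, and what follows is a description without a test. They were 29, 56, 34 and 50 cells in the 4 samples, 169 of 50264 T-like cells (0.336%), with 0.428% of the T-like UMIs. These cells held 38.1% of all sentinel UMIs of T-like cells and 2.80% of the UMIs of the other 24 members. Median depth was 1458 to 1968 UMIs in the sentinel-positive cells and 1306 to 1703 UMIs in the other T-like cells.

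Other members stood higher in these cells in each sample. Of the 24 members that did not define them, 21 were higher than in the remaining T-like cells in all 4 samples, and 18 were at least 2-fold higher in all 4. Of the 21 members with at least 20 UMIs in these cells, 20 were higher in all 4 samples and 17 at least 2-fold; of all 2754 genes with as many, 13.4% were higher in all 4 samples and 2.8% were at least 2-fold higher in all 4. A gene can reach 20 UMIs because it is high in these cells, so that limit favours genes that are. Isg15 was 16.5 to 23.4 times higher, from 954 UMIs in these cells, and Oas3 11.8 to 21.1 times, from only 20. Oas3 in control replicate 1 (33.5 CPM) lay under the floor of 3 counts there (50.3 CPM). Bst2 was 9.24 to 11.6 times, Rtp4 6.05 to 16.03 times, Ifit2 6.69 to 15.5 times and Irf7 5.97 to 7.46 times higher. Weaker members were Stat2 (1.39 to 5.54 times), Ddx58 (1.55 to 4.60) and Gbp2 (1.80 to 4.95). The lowest Stat2 ratio came from cystine replicate 1, where its level was at the floor of 3 counts (54.0 CPM). Ifi44, Oas2 and Iigp1 had 3, 1 and 21 UMIs in all sentinel-positive cells together and were at 0 in 1 sample or more. Oasl2, higher in all 4, had 10.

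The genes outside the list that led these cells are themselves known interferon targets. Cxcl10, a chemokine that draws activated T cells, was 82.2 to 202.1 times higher, and Cmpk2, the neighbour of Rsad2 that encodes a nucleotide kinase, 77.1 to 141.0 times. Gbp6, Ifi213, Phf11b, Ifi208 and Ifi214 followed at 6.95 times or more in every sample. Ifit3b and Ifit1bl1 also led, but they are near copies of Ifit3 and Ifit1, and reads can be split between such copies, as between members of the Gbp and Ifi203 families, Oas1a and Oas1g, or Igtp and Irgm2; levels of these genes are uncertain to that extent. Jak1, a kinase of the interferon receptors, was at 0.97 to 1.29 times its level in the other T-like cells. Cells with 2 or more different markers of any list given next had been left out of the T-like cells, so low values here were partly fixed in advance. Floors (3 counts) in the sentinel-positive cells were 25.6 to 54.0 CPM. The 6 plasmacytoid dendritic markers summed to 16.8 to 36.0 CPM in sentinel-positive cells, from 9 UMIs, and to 19.6 to 28.6 CPM in the others. The 9 monocyte or macrophage markers summed to 0 to 25.6 CPM, from 3 UMIs, and to 9.24 to 12.3 CPM in the others. The 6 other dendritic markers had 0 UMIs in sentinel-positive cells and summed to 0.871 to 3.21 CPM in the others. The 6 B-cell markers summed to 83.9 to 180.1 CPM and 100.3 to 157.9 CPM in the same order.

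**Figure D4:**
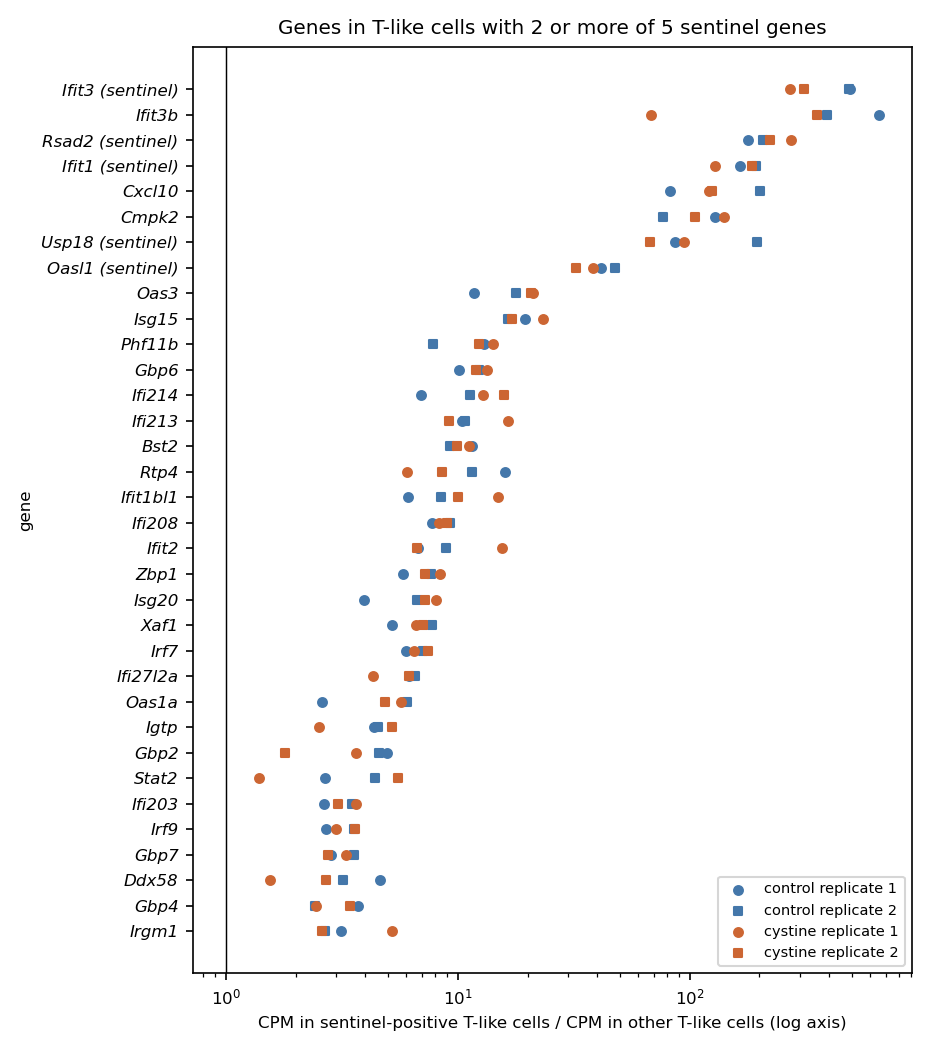
Ratio of CPM in sentinel-positive T-like cells to CPM in other T-like cells (log axis) for members and leading genes with at least 20 UMIs in these cells and a value above 0 in every sample; points are the 4 samples. The 5 sentinels are high by construction, and every other point lies to the right of 1, from 1.39 for Stat2 in cystine replicate 1.

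Sentinel-positive cells occurred in every class described. After thinning, they were 13 of 14681 γδ T-like cells (0.0886%), 16 of 12611 CD8αα cells (0.127%), 15 of 2943 CD8αβ cells (0.510%) and 2 of 188 CD4 T-like cells. T-like cells that fell in none of these named classes held the largest number, 28 of 7628 (0.367%). Monocyte or macrophage-like cells had 6 of 199 (3.02%, 95% exact interval 1.11 to 6.45), with 1 or 2 such cells in each sample. Over all T-like cells the thinned share was 0.0860% and 0.238% in control and 0.192% and 0.256% in cystine samples, with means of 0.162% ± 0.108 and 0.224% ± 0.0457 (SD, n = 2). The groups overlapped (exact permutation p = 0.667), and the difference of 0.0620 percentage points turned to -0.0141 without control replicate 1.

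Whether the diet moved the members was asked first in all kept cells and then within each class. In all kept cells none of the 29 members passed (edgeR, adjusted p from 0.142 to 0.992), against 0.149% of 14073 genes; 5 had an unadjusted p under 0.05, and the DESeq2 Wald test called 2 (Bst2 and Ifi27l2a). The members' median log2 fold change of cystine over control was 0.03 (all genes 0.00). Both cystine samples were above both controls for 9 members and below for 6, against 24.5% and 13.7% of all genes. Among other interferon-induced genes on the fixed list, 1 of 43 passed, Ly6a (log2 fold change 1.48, edgeR adjusted p = 0.029), which encodes the surface protein Sca-1.

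Bst2 was at 262.7 and 231.4 CPM in the control and 378.4 and 426.7 CPM in the cystine samples (log2 fold change 0.66, SE 0.12, edgeR adjusted p = 0.142). The values did not overlap, and the difference did not pass edgeR's threshold, though it did in the DESeq2 Wald test and with the replicate number as a block (edgeR adjusted p = 0.047). Cells with 2 or more of the 6 plasmacytoid dendritic markers held most of these UMIs. They include 1085 cells kept out of the class because they also had UMIs of Cd3 genes (468 cells) or markers of another class. Cells with fewer than 2 of these markers held 29.4%, 33.8%, 22.2% and 20.9% of the Bst2 UMIs, and in them Bst2 was at 80.3, 80.9, 89.7 and 97.1 CPM. Inside the plasmacytoid dendritic-like class the log2 fold change of Bst2 was -0.07 (SE 0.08). The share of that class in the kept cells was higher in both cystine samples, as given above; a larger share of a cell type and more RNA per cell cannot be told apart in the sum over all cells.

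Ifi27l2a was at 137.4 and 133.1 CPM in control and 259.5 and 213.6 CPM in cystine samples (log2 fold change 0.76, SE 0.14, edgeR adjusted p = 0.142). Within classes its log2 fold change was 0.14 in γδ, 0.12 in CD8αα, 0.30 in CD8αβ, 0.58 in CD4 T-like and 0.31 in plasmacytoid dendritic-like cells, none of them called. B-like cells, whose share was also higher in cystine samples, had 336.1, 197.3, 451.6 and 597.2 CPM (log2 fold change 0.95, SE 0.21, edgeR adjusted p = 0.077). The part of the B-like share in the all-cell value was not tested.

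Of the remaining members in all kept cells, Usp18 was at 7.07 and 6.85 CPM in control and 10.9 and 15.6 CPM in cystine (log2 fold change 0.89, edgeR adjusted p = 0.216). Oasl1 was at 5.37 and 4.51 against 8.98 and 7.89 CPM (0.73, edgeR adjusted p = 0.253). Its highest class mean was in B-like cells (15.8 CPM). Cells with fewer than 2 plasmacytoid dendritic markers held 60.8%, 72.7%, 61.1% and 59.5% of the Usp18 UMIs, at 4.47, 5.15, 7.09 and 10.1 CPM. The part of the cell shares in the Usp18 and Oasl1 values was not tested. Gbp2 was the one member with an unadjusted p under 0.05 that lay lower in cystine, at 57.8 and 74.3 against 47.1 and 49.2 CPM (-0.51, edgeR adjusted p = 0.412). Isg15 overlapped, at 152.8 and 157.6 against 127.9 and 177.5 CPM, and its value of -0.07 changed sign without control replicate 2 or cystine replicate 1.

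**Figure D5:**
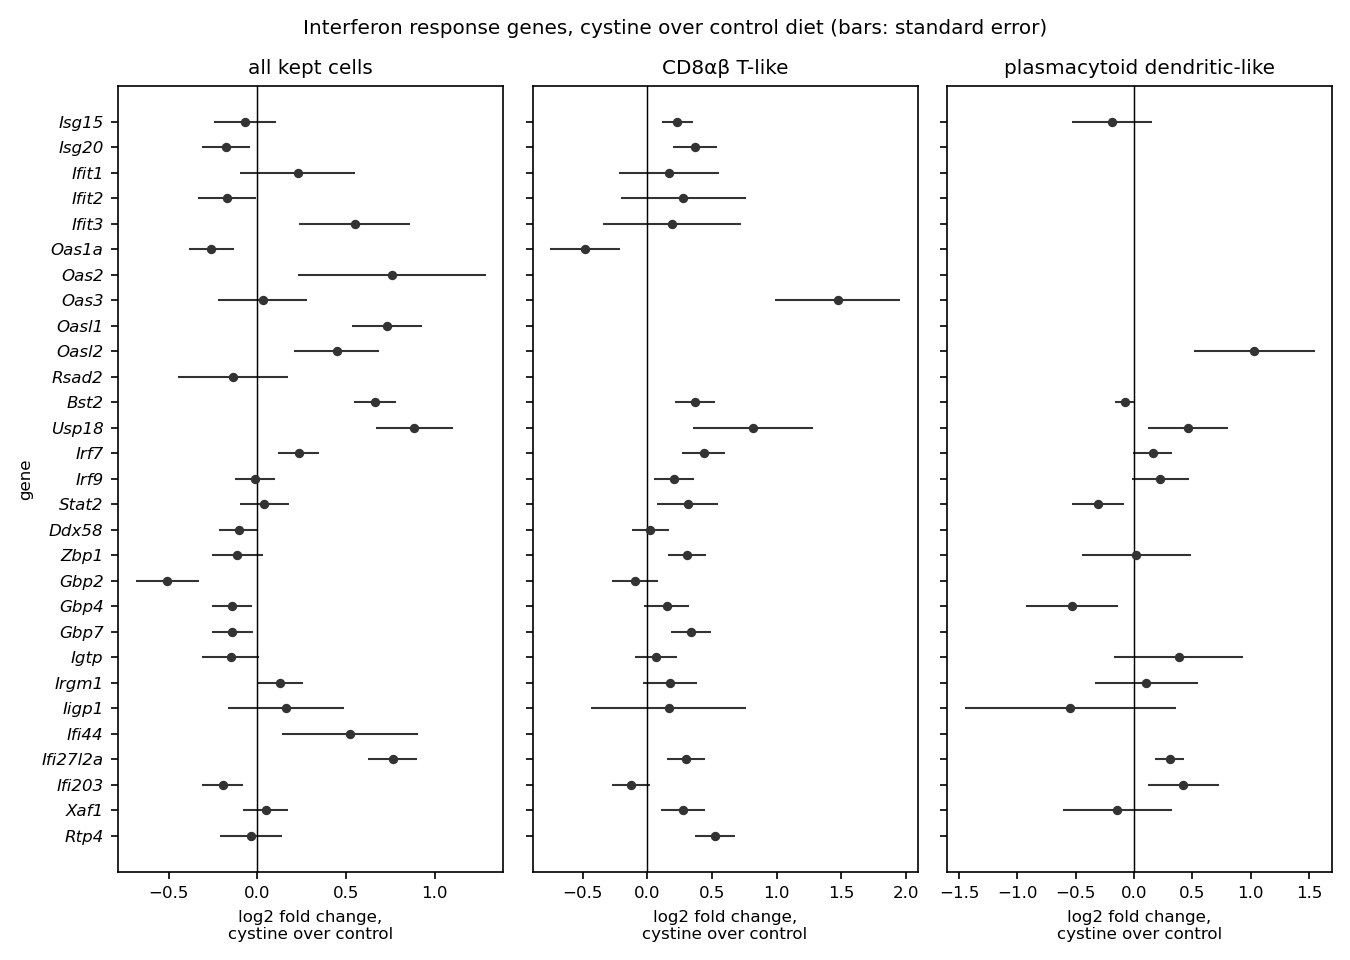
Log2 fold change of cystine over control for each member in all kept cells, CD8αβ T-like cells and plasmacytoid dendritic-like cells; points are edgeR estimates from 2 against 2 samples, bars are standard errors, and members left out by the count filter have no point. No point passed the adjusted threshold; in CD8αβ T-like cells 21 of 24 points lie above 0.

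In the abundant intraepithelial classes no member passed. Among γδ T-like cells 0 of 26 members were called by edgeR, against 0.248% of 11309 genes, with 2 at an unadjusted p under 0.05 (Gbp2 and Isg15) and 0 by the Wald test. Isg15 in these cells was at 155.2 and 162.3 CPM in control and 113.7 and 150.7 CPM in cystine (log2 fold change -0.34, edgeR adjusted p = 0.752). Both cystine samples lay above both controls for 4 of the 26 and below for 5 in γδ T-like cells, against 25.4% and 11.2% of all genes. CD8αα T-like cells gave 0 of 25, against 0.137% of 10929 genes, with 3 at an unadjusted p under 0.05 (Gbp2, Oasl1 and Irf9) and 0 by the Wald test; 7 lay above without overlap and 2 below, against 26.7% and 11.7%. Leaving out control replicate 1 brought Gbp2 under the threshold, as lower in cystine, in both classes.

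In CD8αβ T-like cells most members lay above their control level without passing the test. Of 24 tested, 0 were called by edgeR (0.974% of 8415 genes were), 5 had an unadjusted p under 0.05 and 0 passed the Wald test, yet 21 had a value above 0 and the median log2 fold change was 0.25 (all genes 0.00). Both cystine samples lay above both controls for 14 members and below for none, against 27.9% and 15% of all genes. Rtp4 was at 64.2 and 70.8 CPM in control and 105.7 and 98.7 CPM in cystine (0.52, SE 0.16, edgeR adjusted p = 0.189). Irf7 had 79 and 92 UMIs (84.6 and 103.4 CPM) in control and 254 and 252 UMIs in cystine (0.44, edgeR adjusted p = 0.332), and Oas3 had 5 and 4 against 31 and 24 UMIs (1.47, edgeR adjusted p = 0.236). Gbp2 (-0.10), Oas1a (-0.48) and Ifi203 (-0.13) were the 3 members below 0. Ly6a rose in the same cells (2.88, edgeR adjusted p = 7.3e-05).

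The scarcer classes allowed fewer members to be tested. Within B-like cells 0 of 15 passed by edgeR, against 0.228% of 6576 genes; 5 had an unadjusted p under 0.05 (Isg15, Irf7, Bst2, Irgm1 and Ifi27l2a, all above 0) and 0 passed the Wald test. Irf7 had 29.6 and 7.5 CPM in control and 35.4 and 82.6 CPM in cystine B-like cells (1.56, edgeR adjusted p = 0.697). Without cystine replicate 1, 4 members passed (Isg15, Irf7, Bst2 and Ifi27l2a), without control replicate 1 Irf7 and Ifi27l2a did, and without cystine replicate 2 Ifi27l2a did. Of the 15, 8 lay above without overlap and 0 below, against 20.7% and 14.7% of all genes. In plasmacytoid dendritic-like cells 0 of 15 passed, against 0.0191% of 5238 genes, with 1 (Ifi27l2a) at an unadjusted p under 0.05 and 0 by the Wald test. Without overlap 3 lay above and 2 below, against 17.1% and 16.6%. Irf7 there gave 0.16 (SE 0.17), and Isg15 -0.19 (SE 0.34). CD4 T-like cells let 4 members be tested and 0 passed (0.0% of 1798 genes did), with Ifi27l2a alone at an unadjusted p under 0.05 and 0 by the Wald test. Of these, 1 lay above without overlap and 1 below, against 16.2% and 18.8%. Gbp2, whose 4 UMI counts are given above, did not reach the count filter.

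Monocyte or macrophage-like cells were compared between diets only after the data had been seen, and gave 1 member called of 16 tested, against 0.0744% of 2687 genes. Gbp2 had 21 and 49 UMIs in the control and 9 and 9 in the cystine samples, or 218.8 and 258.6 against 49.0 and 47.2 CPM. It fell by 2.31 on the log2 scale (SE 0.34, edgeR adjusted p = 0.049). The call rests on few cells: it was lost without cystine replicate 2 (adjusted p = 0.216, edgeR) and in the DESeq2 Wald test (adjusted p = 0.298). Irgm1, another GTPase, had 10 and 23 against 6 and 5 UMIs (-1.93, edgeR adjusted p = 0.200). Both cystine samples lay above both controls for 2 of the 16 members and below for 5, against 19.6% and 18.5% of all genes.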

How the data were processed

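The members and gene lists were chosen with earlier results of these data known. The deposited values are UMI counts per gene and cell, made by the authors with Cell Ranger 3.1.0 and Seurat 4.0.1 on GRCm39, per the submitters' processing notes; the matrix header names cellranger 7.0.1, and the difference could not be resolved from the labels. Barcodes below 300 detected genes or above 10% mitochondrial UMIs were left out here, and those with the highest Scrublet scores (0.8% of cells per 1000 barcodes; scanpy 1.11.5) were removed as doublets, 1895 to 2996 per sample. The lowest total among deposited barcodes was 500 UMIs.

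A non-T class needed UMIs of 2 or more of its markers, none of Cd3 genes and fewer than 2 markers of any other class; T-like cells had a Cd3 UMI and were divided by Trdc, Cd8a, Cd8b1 and Cd4. Counts were summed per sample and class and tested with edgeR 4.0.16 (TMM, filterByExpr, quasi-likelihood, Benjamini-Hochberg over all genes), with DESeq2 1.42.0 as an alternative. Diet fits compared 2 with 2 samples, and class contrasts kept the sample as a block. The fits were tried on simulated counts for all kept cells, CD8αβ T-like cells and the contrast of B-like with γδ T-like cells. The simulated spread was set in advance, and changes were placed only in well-counted genes. The trial therefore does not cover members at few UMIs or the scarcer classes. Single values used exact permutation over samples (scipy 1.17.1), and shares carry 95% Clopper-Pearson intervals. Non-member genes come from the fixed lists, or are the up to 15 genes with at least 20 UMIs in sentinel-positive cells and the greatest lowest ratio over the 4 samples. Promoter windows are RefSeq's on GRCm38.p6 and were used for sequence only, because the counts were made on another build. Kept UMIs per sample ranged from 22357785 to 25725004, which gives floors (3 counts) of 0.117 to 0.134 CPM in all kept cells and far higher ones in the scarce classes.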

Additional observations from a re-analysis of the deposited data

Results flagged for a closer look

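The summed level of the 29 members lay in opposite order between diets in different cell classes, by a narrow margin in 1 of them. In γδ T-like cells both cystine samples (1330 and 1381 CPM) lay below both control samples (1386 and 1394 CPM), with 1381 and 1386 CPM at the edge. In CD8αβ T-like cells both cystine samples (2314 and 2136 CPM) lay above both controls (1662 and 1966 CPM), and the cystine-minus-control change was 445.5 CPM greater than in γδ T-like cells. CD4 T-like cells had higher cystine values too (2129 and 2355 CPM, then 2627 and 2735 CPM), with a change 473.5 CPM greater than in γδ T-like cells. B-like cells (930.2 and 664.3 CPM, then 1093 and 1553 CPM) had a change 560.2 CPM greater. These 3 differences in change were not tested. No single member passed the diet test by edgeR in any of these classes, and in CD4 T-like cells the sum rests on 39 to 83 cells per sample, with Gbp2 at 527.6 CPM in cystine replicate 1 alone.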

How the results depend on the processing

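With 2 samples per diet, few cells in the CD4 T-like and monocyte or macrophage-like classes, and members at a few UMIs, small diet differences could not be detected. In all kept cells the DESeq2 Wald test and the replicate block each called 2 members (Bst2 and Ifi27l2a) where the edgeR fit without the block called 0, and leaving out each replicate in turn gave 0 to 1 (Usp18 without cystine replicate 1, Ifi27l2a without cystine replicate 2). The replicate numbers share only a number, with nothing in the labels to pair the samples. Leave-one-out counts were 0 to 1 in γδ and in CD8αα T-like cells (Gbp2 without control replicate 1). In CD4 T-like cells no count filter gave 1 (Gbp2) and leave-one-out 0 to 1. In B-like cells no count filter gave 2 (Irf7 and Ifi27l2a), the replicate block 1 (Ifi27l2a) and leave-one-out 0 to 4. Counts in CD8αβ T-like and plasmacytoid dendritic-like cells stayed at 0 under every alternative run. For monocyte or macrophage-like cells, added after seeing the data, the count of 1 became 0 in the Wald test, 2 with the replicate block (Gbp2 and Irgm1) and 0 to 2 with a replicate left out. In the contrasts with γδ T-like cells, the CD4 count of 8 became 3 in the Wald test and 5 to 7 with a sample left out; leave-one-out ranges were 18 to 22 for plasmacytoid dendritic-like, 19 to 22 for monocyte or macrophage-like, 16 to 17 for B-like and 14 to 19 for CD8αβ T-like cells.

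The change in the sentinel-positive share ran from -0.0141 (without control replicate 1) to 0.138 percentage points. The direction of some small values turned when a sample was left out: Isg15 in all kept cells ran from -0.323 to 0.125 (0.0086 without control replicate 2), Bst2 in plasmacytoid dendritic-like cells from -0.186 to 0.0529, Irf7 there from -0.0199 (without control replicate 2; -0.0076 without cystine replicate 1) to 0.365, and Gbp2 in the CD4 contrast from -0.147 to 1.571. A tally of the other values under alternatives covered only the members called in each class contrast, and a chosen few members in some of the diet fits. Of these values, 702 in class contrasts kept direction and call and 51 lost the call. In the diet fits 134 kept both, 14 gained a call and 2 lost it. Members not called in a contrast could not enter, so the tally gives no rate for all members. The cause of these changes was not tested. The stricter cell filter was not run for CD4 T-like cells, because a sample then had fewer than 30 cells.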

Other observations

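Cells classed as epithelial-like (13 to 50 per sample) entered no comparison. In them Isg15 stood at 25.7 and 36.6 CPM in the control samples and 109.3 and 379.7 CPM in the cystine samples, from 6, 10, 16 and 212 UMIs. Ifit3 had 1, 0, 0 and 32 UMIs and Ifit1 0, 12, 0 and 35, so cystine replicate 2 stood highest for all 3 genes. Chil3, a chitinase-like protein gene of macrophages that is no member, was the other gene called between diets in monocyte or macrophage-like cells (log2 fold change 1.97, edgeR adjusted p = 0.049), with 40 and 36 UMIs in control and 212 and 201 in cystine.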
